A study of Sus scrofa with 12 samples.

Results

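Expression of 10 genes of the prostaglandin and oxytocin system was examined in the endometrium of sows at the end of gestation. The genes were taken by name from a table of 20674 pig genes. They encode the enzymes PTGS1, PTGS2, PTGES, PTGES2 and AKR1B1, which make prostaglandins, the enzyme HPGD, which inactivates them, the prostaglandin receptors PTGER2, PTGER4 and PTGFR, and the oxytocin receptor OXTR. Each name was found once, and all 10 genes passed the filter on low counts that left 15351 genes for testing.

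Landrace × Yorkshire sows were fed from breeding through the 114 days of gestation, with 100 sows in each of 4 groups. L − N received a low-fiber diet with 3.73% crude fiber and no N-carbamylglutamate (NCG). L + N received the same fiber level with 0.05% NCG, H − N a high-fiber diet with 7.46% crude fiber (soybean bran and beet pulp in place of some corn) and no NCG, and H + N that diet with 0.05% NCG. NCG is an analog of N-acetylglutamate, the activator of the first enzyme of the urea cycle, and is fed to raise the body's own arginine synthesis. Each group had 3 libraries of poly(A) RNA from endometrium, 12 in all, with 14369781 to 19309724 counts per library. The labels give no animal for a library, so the p-values measure the spread between these samples. Whether the sows had farrowed when the tissue was taken is not given in the sources used here.

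Prostaglandins are made from arachidonic acid, which phospholipases free from membranes. The cyclooxygenases PTGS1 and PTGS2 convert it to prostaglandin H2, and terminal synthases turn that into prostaglandin E2 or F2α. Around parturition in the sow, endometrial prostaglandin F2α brings about regression of the corpora lutea and, with oxytocin, uterine contraction. Oxytocin receptors in the endometrium couple to phospholipase C and calcium release, and they are known to stimulate prostaglandin release from this tissue.

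The markers of endometrium were present. The 8 epithelial markers summed to 1032–2373 CPM (counts scaled to the same total in every library, with the totals adjusted by the trimmed mean of M values) and the 8 stromal fibroblast markers to 26690–61979 CPM over the 12 libraries. PAG6, a pregnancy-associated glycoprotein of the trophoblast, was at 0 counts in every library. Of the other listed trophoblast and placenta markers, CYP11A1 (1.66–14.8 CPM), GATA3 (3.45–7.42 CPM) and TFAP2C (1.08–9.07 CPM) passed the filter. CYP17A1 and HSD3B1 did not pass it, and PAG2 and PAG10 were not in the table. Whether the samples held placental cells was not tested. In whole tissue, fewer cells of a type and less RNA per cell cannot be told apart.

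Per kilobase of gene length, AKR1B1 was the most abundant of the 10 genes, at 69.3 ± 16.2 FPKM (SD, n = 12; counts scaled by gene length and library total). PTGES followed at 22.2 ± 9.74 FPKM and OXTR at 21.6 ± 9.43 FPKM. PTGER2 (7.83 FPKM), PTGER4 (7.77 FPKM) and PTGES2 (7.31 FPKM) lay close together in the mean of the 12 libraries, and PTGFR (5.12 FPKM) and PTGS2 (4.75 FPKM) came next. PTGS1 (2.51 FPKM) and HPGD (1.58 FPKM) had the lowest means. The SDs of PTGES and OXTR were far wider than the gap between them, as were those of the 3 genes near 7 FPKM, so these neighbours were not separated. AKR1B1 in its lowest library, at 41.1 FPKM, was above every library of the other 9 genes except the highest of PTGES, at 48.2 FPKM.

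**Figure D1:**
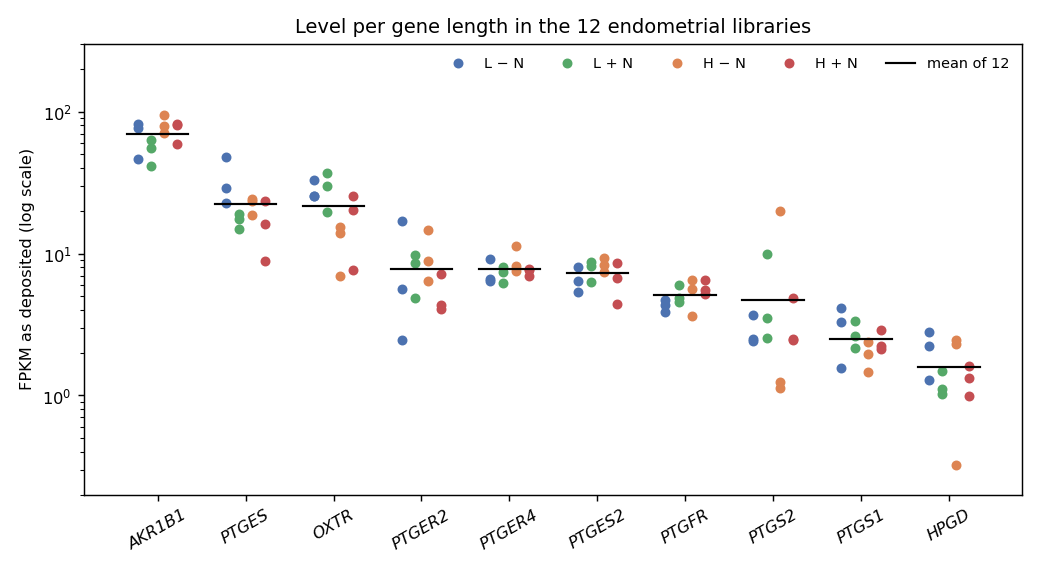
Level per gene length (FPKM as deposited, log axis) of the 10 genes in the 12 endometrial libraries, ordered by the mean of 12 (black line) and colored by group. AKR1B1 lies highest, and PTGS2 has the widest range, from 1.13 to 20.1 FPKM.

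The genes differed in how steady they were. Between the highest and the lowest library, PTGER4 varied 1.82-fold, PTGFR 1.98-fold, PTGES2 2.04-fold and AKR1B1 2.29-fold in CPM. PTGS1 varied 2.82-fold, OXTR 4.83-fold, PTGES 5.77-fold, PTGER2 6.54-fold and HPGD 8.64-fold. PTGS2 varied 19.5-fold, and its highest value, 76.6 CPM, came from H − N replicate 3, with the next at 35 CPM.

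That library stood apart for several of the genes. It was the highest of the 12 libraries for PTGS2 and PTGFR and the lowest for PTGS1, HPGD and OXTR, so that it was at an extreme for 5 of the 10 genes. Over all genes tested it was the highest library for 10.3% and the lowest for 10.1%. H − N replicate 1 came next, at an extreme for 4 of the 10 genes. It was the highest library for PTGER4 and AKR1B1 and the lowest for PTGS2 and PTGFR. Over all genes tested, H − N replicate 1 was the highest library for 9.56% and the lowest for 10.9%.

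**Figure D2:**
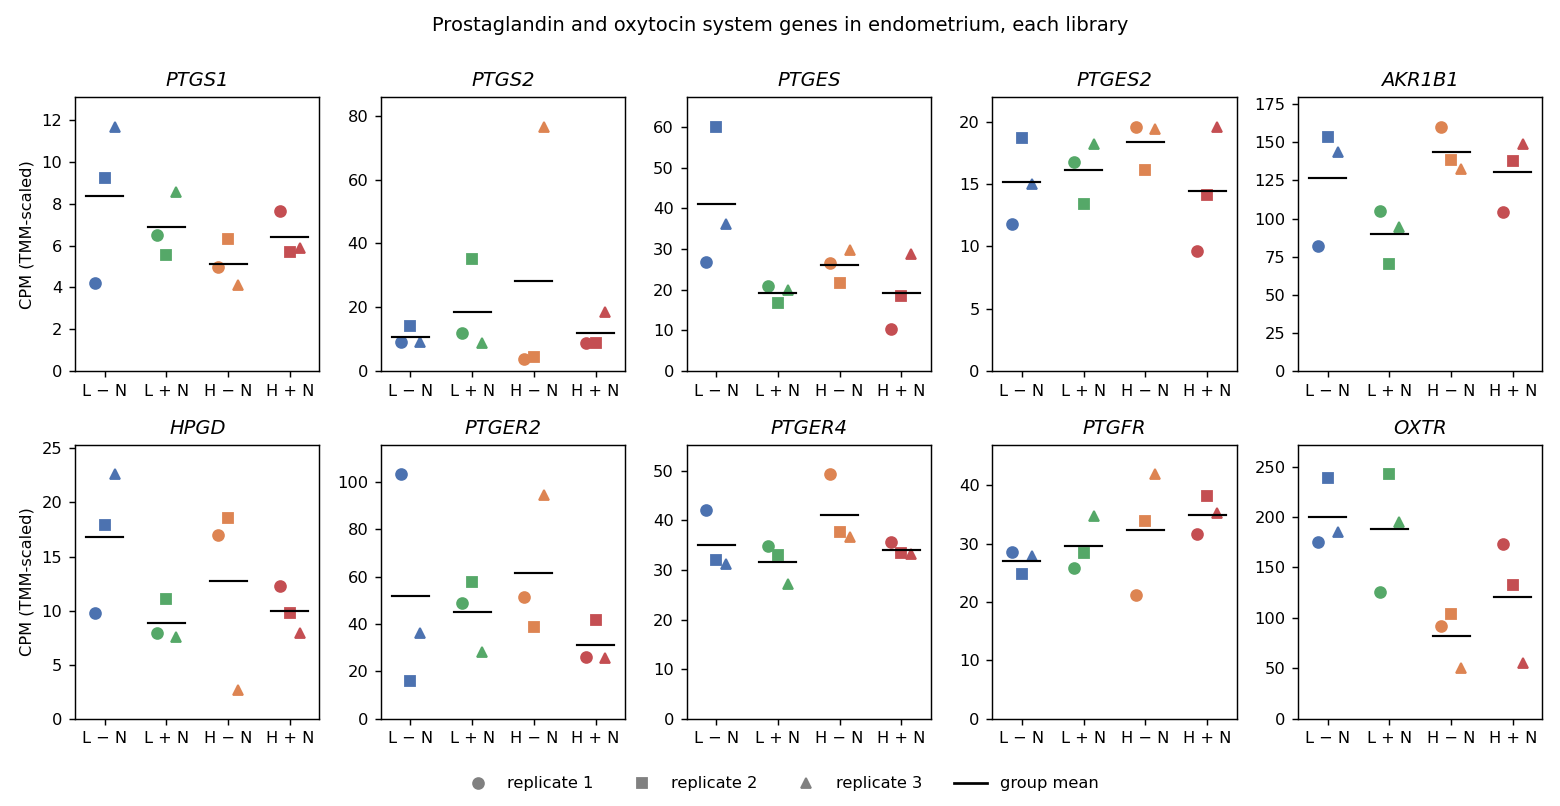
CPM of each gene in each library by group (points, with the replicate number as symbol; black lines are group means; axes start at 0). PTGS2 at 76.6 CPM and HPGD at 2.62 CPM in H − N replicate 3 lie far from the other 2 libraries of that group.

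Prostaglandin synthesis was compared first. PTGES, the microsomal prostaglandin E synthase that acts with PTGS2 (gene 654407, chr1:269911785-269924481, minus strand, Sscrofa11.1), had its highest mean in L − N. Its 3 libraries held 26.9, 60.1 and 36.2 CPM in L − N and 20.8, 16.8 and 19.9 CPM in L + N. The H − N libraries held 26.6, 21.7 and 29.9 CPM and the H + N libraries 10.4, 18.4 and 28.8 CPM. All L + N libraries lay below all L − N libraries, while H + N overlapped with L − N, since its replicate 3 was above the lowest L − N library.

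The mean of PTGES was 41.0 ± 17.1 CPM (SD, n = 3 in this and all group means) for L − N and 19.2 ± 2.1 CPM for L + N. On the high-fiber diet it was 26.1 ± 4.11 CPM for H − N and 19.2 ± 9.23 CPM for H + N. For L + N against L − N the log2 fold change was −1.10 with a standard error (SE) of 0.35, a 95% interval of −1.86 to −0.33 and an adjusted p of 0.0712 by the edgeR quasi-likelihood test. For H + N against L − N it was −1.10 with an adjusted p of 0.0722, and for the 2 groups with NCG against the 2 without it −0.77 with an SE of 0.25 and an adjusted p of 0.0874. These differences did not pass the threshold of 0.05. In the same 3 comparisons 5 of 6 markers of dividing cells rose past the adjusted p. They summed to 90.9–218.9 CPM in L − N, 215.6–257.7 CPM in H − N and 327.9–478.7 CPM in the groups with NCG. In L + N against L − N, 2 of 9 macrophage, 2 of 8 smooth muscle and 2 of 7 endothelial markers fell past the adjusted p. None of these 3 lists held a marker with a log2 fold change above 0. In H + N against L − N, 4 of 9 macrophage and 1 of 7 endothelial markers fell past it, and with NCG 1 of 7 endothelial markers. The 8 smooth muscle markers passed in neither, with 0 above 0 in both and medians of −1.10 and −0.74. The part of these cells in the PTGES values was not tested. With DESeq2 on the 12 libraries, the tool named in the study's methods, the same 3 comparisons had adjusted p of 0.0180, 0.0188 and 0.0243 and passed. With DESeq2 on the 2 groups alone, L + N against L − N passed (adjusted p = 0.00479) and H + N against L − N did not (adjusted p = 0.0704). Without L − N replicate 2, the highest library, both groups with NCG had a log2 fold change of −0.72 against L − N. Neither passed by edgeR in that fit. Without L − N replicate 1 the log2 fold change of L + N was −1.33 with an adjusted p of 0.0346 by edgeR. Of the 12 edgeR fits with a library left out, PTGES passed in 3 for L + N against L − N and in 1 for H + N.

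PTGES2, a membrane-associated prostaglandin E synthase (gene 100155133, chr1:268585725-268591356, minus strand), lies 1320429 bp from PTGES on the same chromosome. Its group means ran from 14.5 ± 5.01 CPM in H + N to 18.4 ± 1.92 CPM in H − N, and its largest difference among the comparisons of 2 groups was a log2 fold change of −0.35 for H + N against H − N (SE 0.26, adjusted p = 0.730, edgeR). In each of the 4 groups, the library with the least PTGES was also the one with the least PTGES2. The ratio of the FPKM of PTGES to that of PTGES2 was 4.26, 6.0 and 4.51 in the L − N libraries and 2.02–2.88 in the other 9.

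PTGS1, the cyclooxygenase expressed constitutively in many tissues (gene 397541, chr1:262456106-262482159, plus strand), had a mean of 8.37 ± 3.81 CPM for L − N and 6.87 ± 1.55 CPM for L + N. For H − N it was 5.14 ± 1.10 CPM and for H + N 6.41 ± 1.07 CPM. The L − N libraries held 4.20, 9.22 and 11.7 CPM and so spanned nearly the whole range of the gene. H − N against L − N gave a log2 fold change of −0.70 (SE 0.35, adjusted p = 0.244, edgeR). Without L − N replicate 1, the lowest of its group, this became −1.02 with an adjusted p of 0.0360, and without L − N replicate 3, the highest, −0.38 with an adjusted p of 0.637.

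PTGS2, the inducible cyclooxygenase (gene 397590, chr9:127850164-127858866, minus strand), overlaps PLA2G4A on the opposite strand by 5286 bp, and the counting strand is not given in the sources used here. The L − N libraries held 9.04, 14.1 and 9.27 CPM and those of L + N 11.8, 35 and 8.89 CPM. The H − N libraries held 3.94, 4.51 and 76.6 CPM and those of H + N 8.83, 8.75 and 18.5 CPM. The lowest 2 libraries and the highest one thus belonged to the same group. H − N against L − N gave a log2 fold change of 1.39 with an SE of 0.97 and a 95% interval of −0.74 to 3.51 (adjusted p = 0.403, edgeR). Without H − N replicate 3, the same comparison gave −1.36 with an adjusted p of 0.213. The direction turned in the same way for H + N against H − N, from −1.24 to 1.51, and for NCG, from −0.23 to 1.14.

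AKR1B1 is an aldo-keto reductase with prostaglandin F synthase activity in the endometrium (gene 396816, chr18:14593516-14752316, plus strand). The L + N libraries held 105.0, 70.0 and 94.6 CPM and the H − N libraries 160.3, 138.2 and 132.5 CPM. These groups did not overlap, and H − N was higher by a log2 fold change of 0.68 (SE 0.23, 95% interval 0.16 to 1.19, adjusted p = 0.185, edgeR). L − N lay between them in the mean, at 126.4 ± 38.7 CPM, with libraries at 82.1, 153.7 and 143.3 CPM, and H + N at 130.4 ± 23.3 CPM. L + N against L − N gave −0.49 (adjusted p = 0.197, edgeR), and without L − N replicate 1 −0.72 with an adjusted p of 0.0340. Without L − N replicate 2 it gave −0.33 with an adjusted p of 0.470 by edgeR.

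HPGD, the 15-hydroxyprostaglandin dehydrogenase that begins the breakdown of prostaglandins E2 and F2α (gene 100156186, chr14:15718261-15773534, plus strand), was lower on average in the groups with NCG. Its libraries held 9.81, 17.9 and 22.6 CPM in L − N and 7.96, 11.06 and 7.52 CPM in L + N. In H − N they held 17.0, 18.6 and 2.62 CPM, and in H + N 12.3, 9.78 and 7.91 CPM. Except for H − N replicate 3 at 2.62 CPM and L − N replicate 1 at 9.81 CPM, all libraries without NCG were above all libraries with it. NCG against no NCG gave a log2 fold change of −0.64 (SE 0.39, adjusted p = 0.349, edgeR). Without H − N replicate 3 it gave −0.88 with an adjusted p of 0.0428, so 1 library decided whether this difference passed.

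PTGS2 and HPGD, which make and break down prostaglandins, lay at opposite ends in H − N replicate 3. The ratio of their CPM was 29.2 in that library, 3.16 in L + N replicate 2, and 0.23–2.33 in the other 10. In the same library PLA2G4A, the cytosolic phospholipase that frees arachidonic acid, was at 61.5 CPM and SLCO2A1, a prostaglandin transporter, at 72.5 CPM, each the highest of 12. So was CXCL8, a neutrophil-attracting chemokine, at 143.7 CPM. Among the neutrophil markers CSF3R, S100A8, S100A9 and S100A12 were also highest there, at 48.8, 15.3, 53.7 and 27.2 CPM, and CXCR2 was second highest at 26.8 CPM. The remaining marker of the 6, FCGR3A, went the other way and was the lowest of 12 there, at 69.0 CPM. S100A9, a calcium-binding protein abundant in neutrophils, was at 0.11–9.96 CPM in the other 11 libraries, with L + N replicates 2 and 1 next. The sum over the 6 neutrophil markers, 240.9 CPM, was within that of L − N (127.1–401.6 CPM), where FCGR3A made up most of it. The 8 epithelial markers had their highest sum, 2373 CPM, in the same library. The part of these cells in the PTGS2 and HPGD values was not tested. L + N replicate 2 was second for both PTGS2 (35 CPM) and CXCL8 (65.0 CPM), whereas the other 2 libraries of H − N had the lowest PTGS2, with CXCL8 at 2.12 and 1.80 CPM.

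**Figure D3:**
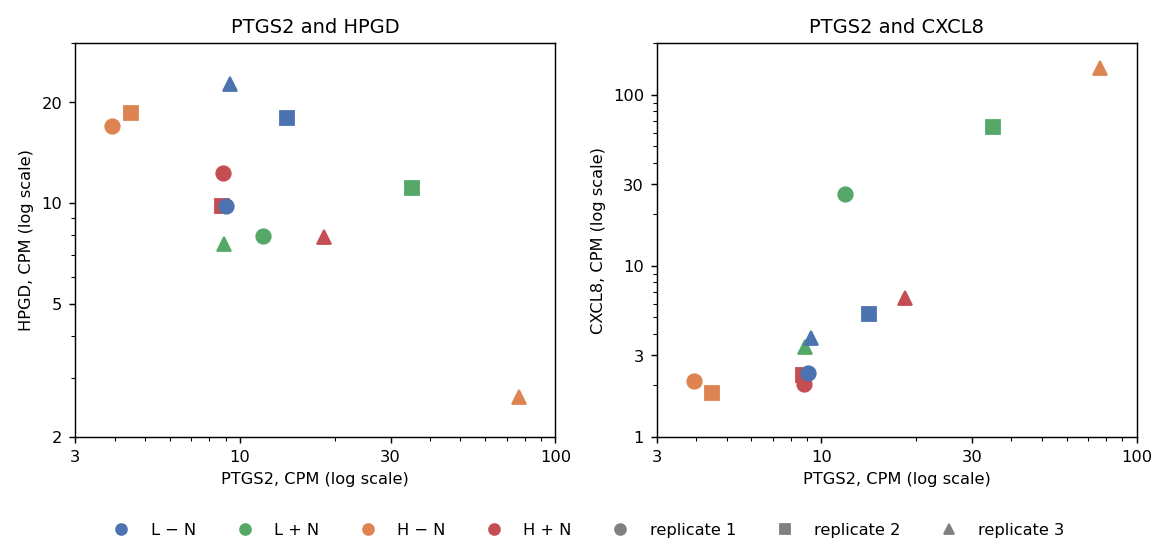
CPM of HPGD (left) and CXCL8 (right) against PTGS2 in each library, on log axes, with color for the group and symbol for the replicate number. H − N replicate 3 has the most PTGS2 (76.6 CPM) and CXCL8 (143.7 CPM) and the least HPGD (2.62 CPM).

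None of the 3 prostaglandin receptors passed the test between diets. PTGER2, an E2 receptor that raises cAMP (gene 100127164, chr1:181993961-182009959, plus strand), overlaps PTGDR on the same strand by 12415 bp. It held 103.3, 15.8 and 36.1 CPM in L − N, which included both its highest and its lowest library. Its mean was 51.8 ± 45.8 CPM for L − N and 44.8 ± 15.1 CPM for L + N, against 61.6 ± 29.2 CPM for H − N and 31.1 ± 9.01 CPM for H + N. H + N against H − N gave a log2 fold change of −0.98 (95% interval −2.24 to 0.27, adjusted p = 0.643, edgeR), and −0.54 without H − N replicate 3. L − N replicate 1, with the most PTGER2, also stood apart by its 8 smooth muscle markers, which summed to 5604 CPM against 939–2206 CPM in the other 11 libraries. The part of these markers in the PTGER2 values was not tested.

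PTGER4, the other E2 receptor that raises cAMP (gene 100625072, chr16:25670832-25686556, plus strand), was the steadiest gene. It held 49.4, 37.6 and 36.6 CPM in H − N and 34.7, 33.0 and 27.2 CPM in L + N, and these groups did not overlap. H − N was higher by a log2 fold change of 0.38 (SE 0.16, adjusted p = 0.248, edgeR). H + N, at 35.7, 33.5 and 33.2 CPM, also lay below H − N in every library (log2 fold change −0.27, adjusted p = 0.650, edgeR).

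PTGFR, the receptor of prostaglandin F2α (gene 397126, chr6:134727334-134777067, minus strand), had its lowest mean in L − N, at 27.1 ± 2.03 CPM, and its highest in H + N, at 34.9 ± 3.26 CPM. L + N lay at 29.6 ± 4.53 CPM and H − N at 32.3 ± 10.5 CPM. The H + N libraries held 31.6, 38.1 and 35.2 CPM and the L − N libraries 28.6, 24.8 and 27.9 CPM, with no overlap. The log2 fold change between them was 0.37 (95% interval −0.10 to 0.84, adjusted p = 0.293, edgeR), which did not pass.

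OXTR, the receptor through which oxytocin acts on the uterus (gene 397092, chr13:65134055-65155543, minus strand), had lower means on the high-fiber diet. It held 174.8, 238.8 and 185.4 CPM in L − N and 125.3, 242.7 and 195.1 CPM in L + N. The H − N libraries held 92.1, 104.0 and 50.3 CPM, all below the 6 libraries of the low-fiber diet. The H + N libraries held 173.3, 132.3 and 54.9 CPM, all below L − N and spread over a 3.15-fold range.

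The mean of OXTR was 199.7 ± 34.3 CPM for L − N and 187.7 ± 59.1 CPM for L + N, against 82.1 ± 28.2 CPM for H − N and 120.2 ± 60.1 CPM for H + N. H − N against L − N gave a log2 fold change of −1.28 with an SE of 0.40, a 95% interval of −2.15 to −0.41 and an adjusted p of 0.0826 (edgeR). H − N against L + N gave −1.19 (adjusted p = 0.174, edgeR), and the high-fiber against the low-fiber diet −0.96 (SE 0.28, adjusted p = 0.114). By DESeq2 on the 12 libraries the adjusted p of these 3 were 0.0145, 0.0472 and 0.0161. Without H − N replicate 3, the library with the least OXTR, H − N against L − N gave −1.03 with an adjusted p of 0.191 by edgeR. H − N against L + N then gave −0.94 and high against low fiber −0.83. Without H + N replicate 3, H − N against L − N gave −1.28 with an adjusted p of 0.0394 by edgeR. The difference between the NCG effects on OXTR at the 2 fiber levels, tested by the interaction term, was 0.64 on the log2 scale (95% interval −0.57 to 1.85, adjusted p = 0.640, edgeR).

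The markers of macrophages had their lowest sums in H − N, where the means of OXTR and PTGS1 were also lowest. The 9 markers were detected in all libraries, and they summed to 1381–3586 CPM for L − N and 1163–1644 CPM for L + N. For H − N the sum was 712–1028 CPM and for H + N 1118–1406 CPM. Of the 9, 7 fell past the adjusted p in H − N against L − N. Over the list 0 had a log2 fold change above 0, and the median was −1.59. The stromal fibroblast markers had their highest sums in the 2 libraries with the least OXTR, 61979 CPM in H − N replicate 3 and 60509 CPM in H + N replicate 3. Over the 12 libraries, as a description, Pearson's r with the macrophage sum was 0.75 for PTGS1, 0.69 for OXTR and 0.62 for HPGD. With the stromal sum it was 0.69 for PTGFR, −0.62 for HPGD and −0.60 for OXTR. PTGER2 had −0.74 and AKR1B1 0.61 with the sum of 7 T and NK cell markers, and PTGS1 had −0.63 with the epithelial sum. These were picked as the values beyond 0.60 in size among all pairs of the 10 genes and the marker lists. Without H − N replicate 3 they were 0.69, 0.58, 0.46, 0.58, −0.40, −0.43, −0.81, 0.63 and −0.50. The part of these cell types in the values of the 10 genes was not tested, nor was it for RGS2 and PPARG, 2 pathway genes that also fell in H − N.

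**Figure D4:**
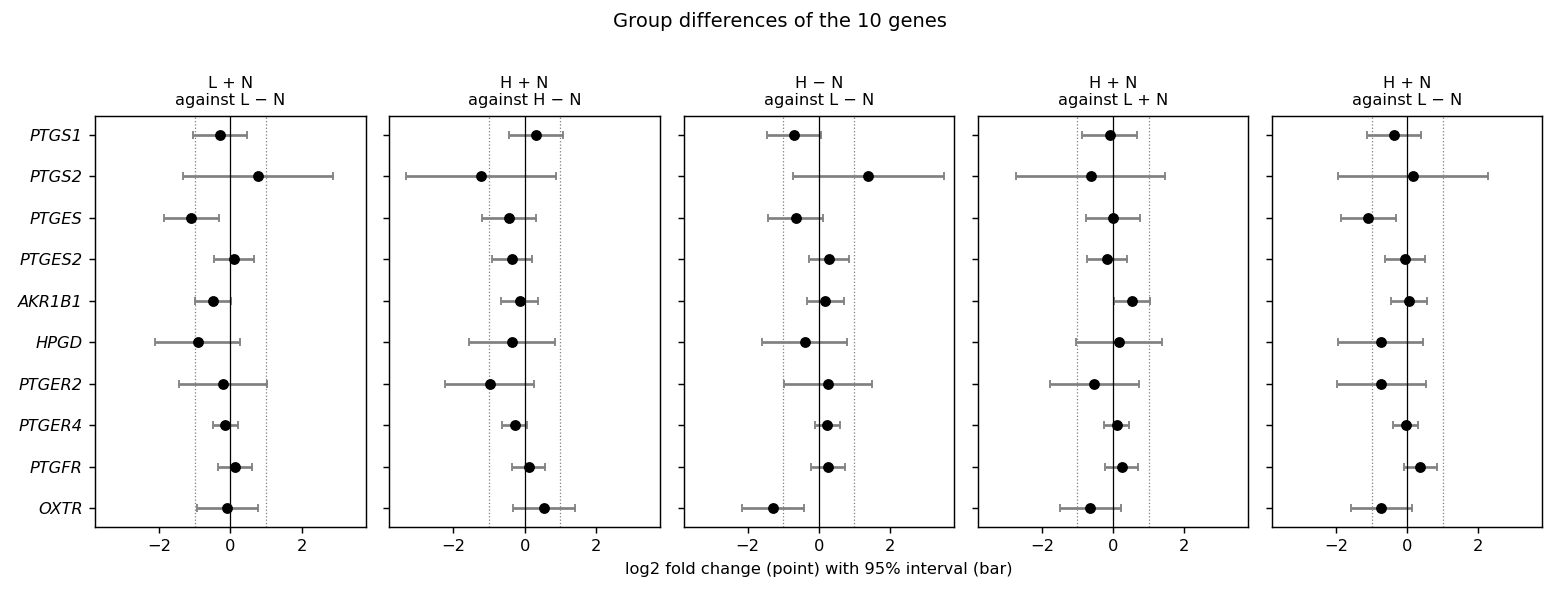
Log2 fold changes (points) with 95% intervals (bars) of the 10 genes in 5 comparisons of 2 groups; dotted lines mark a fold of 2. Against L − N, the intervals of PTGES for both groups with NCG and that of OXTR for H − N lie wholly below 0, and those of PTGS2 are the widest.

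Counted over the 10 genes, no comparison held one past the adjusted p of 0.05 by edgeR, with or without the fold threshold of 2. For L + N against L − N the count was 0 of 10 against 9.6% of all genes tested, or 3.99% with the fold threshold, with 1 gene (PTGES) at an unadjusted p under 0.05 (27.8% of all genes) and 1 whose groups did not overlap (35.3%). DESeq2 called 1 of 10, PTGES, against 16.7% of all genes, and against 18.6% when fitted to these 2 groups alone. In this and the following counts PTGS2 stands as not called, since DESeq2 on the 12 libraries gave it no adjusted p. On 2 groups alone PTGS2 also had none for H − N compared with L − N, H + N or L + N. For H − N against L − N it was 0 of 10 against 5.27%, or 2.91% with the fold threshold. OXTR alone had an unadjusted p under 0.05 (24.4%) and groups without overlap (25.4%), and DESeq2 called it against 13.1%, or 9.43% on the 2 groups alone. For H + N against L − N it was 0 of 10 against 7.97%, or 3.58% with the fold threshold. PTGES alone had an unadjusted p under 0.05 (27.5%), PTGFR and OXTR were without overlap (28%) and DESeq2 called PTGES against 16.6%. On the 2 groups alone DESeq2 called 0 of 10 against 11.4%. The shares of the 10 genes were near or under those of all genes in each of these comparisons, which share the 3 L − N libraries.

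Between the other pairs of groups no gene of the whole table passed by edgeR, which is 0%. For H + N against H − N none of the 10 genes had an unadjusted p under 0.05 (8.67% of all genes), PTGER4 alone did not overlap (13%) and DESeq2 called 0 of 10 against 0.304%. For H + N against L + N only AKR1B1 had an unadjusted p under 0.05 (4.68%), with a log2 fold change of 0.54, no gene was without overlap (11%) and DESeq2 called 0 of 10 against 0.0109%. For H − N against L + N, PTGER4, AKR1B1 and OXTR had an unadjusted p under 0.05 (17.8%), these 3 and PTGES did not overlap (29%), and DESeq2 on the 12 libraries called OXTR against 5.51%. On the 2 groups alone DESeq2 called OXTR and AKR1B1 against 7.78%.

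For the factors of the design, high against low fiber had 0 of 10 genes past the adjusted p against 0.0521% of all genes, or 0.0261% with the fold threshold. OXTR alone was under an unadjusted p of 0.05 (19.5%), none was without overlap (0.886%), and DESeq2 called OXTR against 6.74%. For NCG it was 0 of 10 against 7.27%, or 1.8% with the fold threshold, with PTGES alone under an unadjusted p of 0.05 (23.6%), none without overlap (3.99%) and PTGES called by DESeq2 against 12.6%. For the interaction it was 0 of 10 against 0%, with none under an unadjusted p of 0.05 (12.8%) and 0 of 10 called by DESeq2 against 1.91%. The interval of the interaction spanned up to 5.96 log2 units, for PTGS2.

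The median log2 fold change of the 10 genes was −0.22 for NCG beside −0.03 for all genes tested, and −0.03 for high fiber beside 0.02. Between pairs of groups it ran from −0.31 for H + N against H − N to 0.41 for H − N against L + N. These are medians of values that did not pass the test.

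The rest of the pathway was read from 6 lists of 62 genes, of which 56 were in the table and 53 were tested. In L + N against L − N, PTGR2 and ESR1 rose and MGLL and ITPR1 fell. In H − N against L − N, ESR1 rose and PPARG and RGS2 fell. In H + N against L − N, ESR1 and PGR rose and RGS2 and PLA2G16 fell. With NCG, PLCB4 and ESR1 rose and PLA2G16 fell. These were 4, 3, 4 and 3 of 53 genes, where 9.6%, 5.27%, 7.97% and 7.27% of all genes passed. In the other 5 comparisons none of the 53 passed by edgeR, and between 3 and 11 of the 53 had an unadjusted p under 0.05. DESeq2 on the 12 libraries called 10 of 53 for L + N against L − N (16.7% of all genes), 9 for H − N against L − N (13.1%), 12 for H + N against L − N (16.6%) and 5 for NCG (12.6%). It called 9 for high against low fiber (6.74%), 3 for H − N against L + N (5.51%), 1 for the interaction (1.91%) and 0 for H + N against H − N (0.304%) or L + N (0.0109%).

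Among the regulators linked to labor, ESR1, the estrogen receptor alpha, was lowest in L − N. It held 522.6, 417.1 and 409.8 CPM in L − N and 1060, 865.7 and 1281 CPM in H + N. Each of the 9 libraries of the other groups, from 566.5 CPM upward, was above all L − N libraries. The log2 fold changes against L − N were 0.96 in L + N (SE 0.22, adjusted p = 0.0217), 0.85 in H − N (adjusted p = 0.0473) and 1.25 in H + N (adjusted p = 0.0161, all edgeR). The last lost its call without L − N replicate 3 (adjusted p = 0.0801, edgeR) or without H + N replicate 1, and the first 2 passed in 13 and 7 of 17 alternatives. In the fits where the last was lost, 4 and 1 genes of the whole table passed, against 1223 with all libraries.

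PGR, the progesterone receptor, held 26.4, 34.5 and 37.9 CPM in L − N and 59.3, 43.6 and 119.1 CPM in H + N. Its log2 fold change was 1.17 (SE 0.32) with an adjusted p of 0.0500, just under the threshold, and it passed in 4 of 17 alternatives. Without H + N replicate 3, the highest library, it was 0.64 with an adjusted p of 0.133. GJA1, the gap junction protein connexin 43 that couples uterine muscle cells at labor, had 334.0 CPM on average in L − N and 940.4 CPM in H + N (log2 fold change 1.49, adjusted p = 0.0737, edgeR), with H + N replicate 2 at 310.9 CPM within the range of L − N. It passed in 4 of 17 alternatives, among them DESeq2 on the 12 libraries (adjusted p = 0.0141), which also called it for high against low fiber (adjusted p = 0.0351). Of the 13 listed regulators, edgeR called 2 and DESeq2 on the 12 libraries 6 in at least 1 comparison. The share of all genes called in at least 1 comparison was not counted. This count and the like counts for the lists below thus have no share beside them and show no excess.

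In the coupling of the oxytocin receptor, RGS2, which dampens signals through the Gq protein that the receptor uses, fell in both high-fiber groups against L − N. The L − N libraries held 117.5, 161.1 and 164.4 CPM and those of L + N 113.5, 81.9 and 90.8 CPM. The H − N libraries held 50.5, 65.0 and 71.2 CPM and those of H + N 81.2, 71.2 and 53.8 CPM. Every high-fiber library lay below every low-fiber library, with 81.2 and 81.9 CPM as the closest pair. Against L − N the log2 fold change was −1.25 in H − N (SE 0.20, adjusted p = 0.0181) and −1.10 in H + N (adjusted p = 0.0176, edgeR), and for high against low fiber it was −0.86 with an adjusted p of 0.0576 by edgeR and 1.04e-05 by DESeq2 on the 12 libraries. DESeq2 also called the lower level in L + N against L − N (adjusted p = 0.0238). Without L − N replicate 3 both edgeR calls in the high-fiber groups were lost, with adjusted p of 0.0868 and 0.0804. In these fits 6 and 4 genes of the whole table passed, against 809 and 1223 with all libraries. RGS2 also lost its call in H − N without H − N replicate 1 and in H + N without H + N replicate 1. There 0 and 1 genes of the whole table passed. With single libraries left out, its log2 fold change ran from −1.39 to −1.12 in H − N and from −1.26 to −0.95 in H + N.

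PLCB4, a phospholipase C beta, rose with NCG by 0.98 on the log2 scale (SE 0.24, adjusted p = 0.0318, edgeR), from a mean of 15.7 to 31.1 CPM, and passed in 8 of 16 alternatives. ITPR1, the inositol trisphosphate receptor that releases calcium, fell in L + N against L − N by 0.54 (adjusted p = 0.0331, edgeR), from 123.5 to 84.9 CPM, and passed in 11 of 17 alternatives. Of the 14 genes tested in this list, edgeR called 3 and DESeq2 on the 12 libraries 8 in at least 1 comparison, again without a share of all genes to set beside them. OXT itself, the oxytocin gene, had 0–27 counts per library and did not pass the filter.

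**Figure D5:**
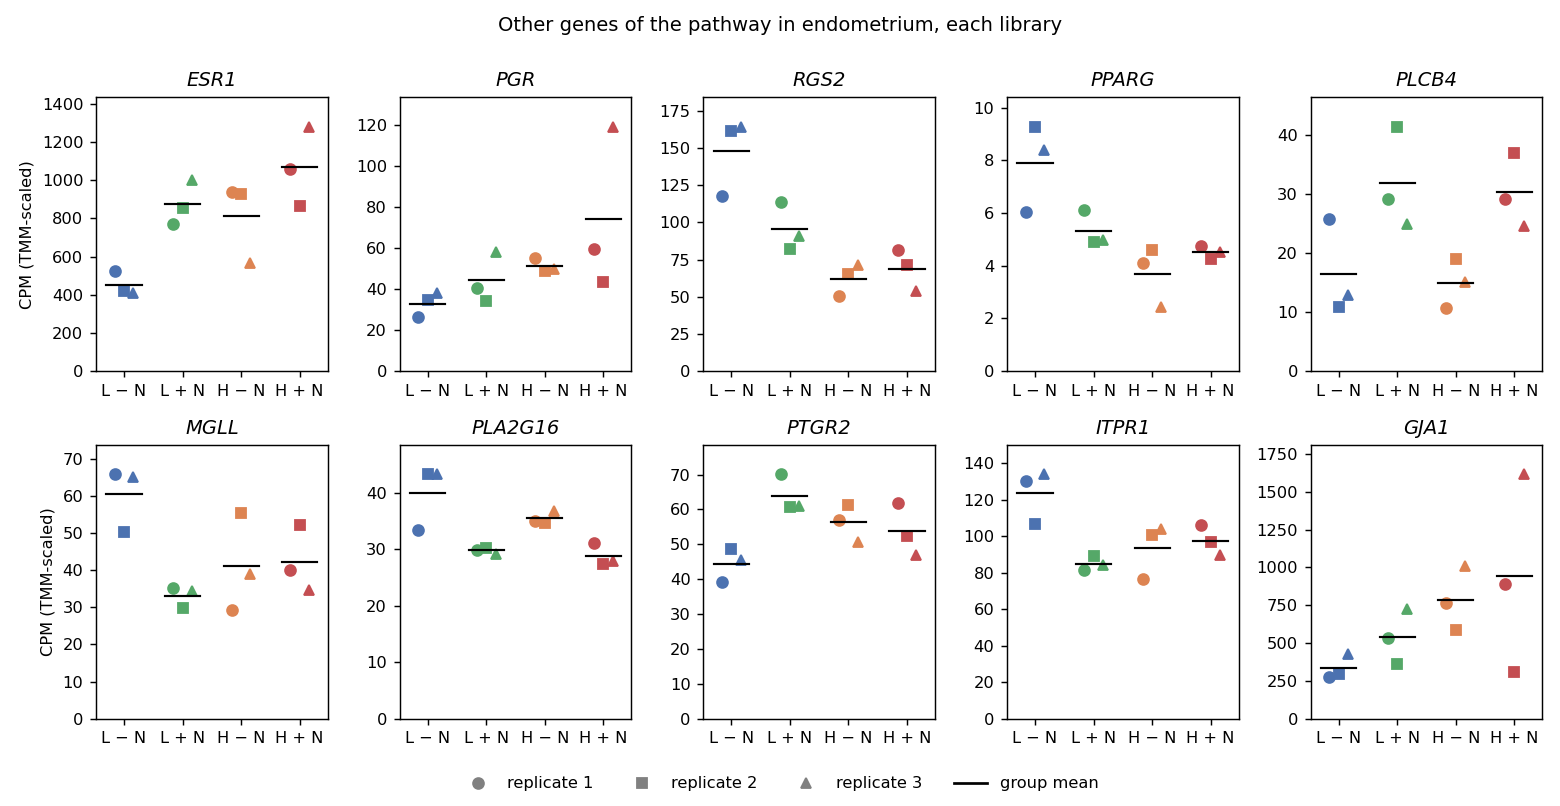
CPM in each library by group of the 9 other pathway genes that passed the edgeR test in at least 1 comparison, and of GJA1, which did not pass by edgeR and passed by DESeq2 (points with the replicate number as symbol; black lines are group means; axes start at 0). ESR1 is lowest in the 3 L − N libraries, and RGS2 is lower in all 6 high-fiber libraries than in all 6 low-fiber ones.

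Of the genes that free arachidonic acid, MGLL, the monoacylglycerol lipase, fell in L + N against L − N by 0.87 (SE 0.23, adjusted p = 0.0367, edgeR), from 60.5 to 33.2 CPM, and passed in 10 of 17 alternatives. PLA2G16, a phospholipase A, fell in H + N against L − N by 0.48 (adjusted p = 0.0398, edgeR) and with NCG by 0.36 (adjusted p = 0.0286), and passed in 6 of 17 and 7 of 16 alternatives. All 6 libraries with NCG held less PLA2G16, 27.3–31.1 CPM, than the 6 without it, 33.4–43.3 CPM. PLA2G4A did not pass in any comparison by edgeR or by DESeq2 on the 12 libraries, and its largest difference between 2 groups was 0.66 for H − N against L − N (adjusted p = 0.164, edgeR).

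Of the inactivating enzymes and transporters, PTGR2, a reductase of 15-keto prostaglandins that acts after HPGD, rose in L + N against L − N by 0.53 (SE 0.14, adjusted p = 0.0342, edgeR), from 44.4 to 64.0 CPM, and passed in 10 of 17 alternatives. Of the 5 genes of this list, edgeR called this 1 and DESeq2 on the 12 libraries 2. SLCO2A1, with group means of 18.9–38.8 CPM, was called by neither. Of the 8 further synthases, edgeR called 0 and DESeq2 on the 12 libraries 3 in at least 1 comparison. PTGES3, the cytosolic prostaglandin E synthase and a cochaperone of steroid receptors, held 219.2–223.5 CPM in L − N and 260.6–338.7 CPM in H + N, without overlap (log2 fold change 0.38, adjusted p = 0.0683, edgeR). DESeq2 on the 12 libraries called PTGES3 in this comparison (adjusted p = 0.0256) and for high against low fiber (adjusted p = 0.0344).

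Of the other prostanoid receptors, PPARG, a nuclear receptor that binds prostaglandin J2 derivatives, fell in H − N against L − N by 1.09 (SE 0.28, adjusted p = 0.0462, edgeR), from 7.91 to 3.69 CPM, and passed in 4 of 17 alternatives. PTGER3, the E2 receptor that lowers cAMP, was scarce at 0.55–4.90 CPM and was called by neither tool. Of the 9 receptors tested, edgeR called 1 and DESeq2 on the 12 libraries 3 in at least 1 comparison.

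The genes most like each of the 10 were taken by Pearson's r of log2 CPM over the 12 libraries among 14018 named genes, as a description. For PTGS2 they were MMP3 (r = 0.91), SGMS2 and TNIP3. CXCL8 came first when ranks were used in place of values, and RIPK2 came first without H − N replicate 3. For PTGES they were ENO1 (r = 0.96), AKT1 and TRAF4, for PTGER2 CSF1 (r = 0.96), BMPR1B and PADI2, and for OXTR PEX2 (r = 0.93), ADGRD1 and DEFB115.

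For PTGS1 they were SPG20 (r = 0.92), PLTP and PLD3, for PTGES2 ABCB8 (r = 0.94), INTS1 and RCC2, and for AKR1B1 NDUFB6 (r = 0.90), TEX261 and IL12RB1. For HPGD they were SLC9A9 (r = 0.89), LYRM9 and SMYD3, and none of these 3 remained among the first 3 without H − N replicate 3. For PTGER4 they were HSP90AB1 (r = 0.89), BTF3 and VPS13D, and for PTGFR PLOD2 (r = 0.87), ACSBG2 and DZIP1L. With ranks, at most 1 of the 3 genes remained for any of the 10.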

How the data were processed

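Total RNA of endometrium was sequenced as strand-specific poly(A) libraries on an Illumina platform. According to the submitters' processing notes, the authors trimmed reads with fastp 0.22.0, aligned them to Sscrofa11.1 with HISAT2 2.1.0 and counted them per gene with HTSeq 0.9.1. The deposited table holds raw gene counts, which were used for all tests, and FPKM values that the authors had scaled by gene length and library total. The FPKM followed from count, length and total within 1.91e-05%, and they were used only to compare levels between genes. The counting strand is not given in the sources used here, so counts of genes that overlap on opposite strands are uncertain. Counts of PTGER2, which overlaps PTGDR on the same strand, are uncertain too, since the strand would not tell their shared reads apart.

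Libraries were grouped by the labels. Genes were filtered (filterByExpr), scaled by TMM and tested with the quasi-likelihood test of edgeR 4.0.16 (R 4.3.3) on all 12 libraries, with 1 mean per group, 8 residual degrees of freedom and Benjamini-Hochberg adjustment over all 15351 genes. CPM are on the TMM scale, and libraries of 14369781 to 19309724 counts gave 38 counts or more of each of the 10 genes in every library. SEs were derived as the size of the log2 fold change over the square root of the test's F statistic. The 95% intervals used these SEs and a t quantile. Calls needed an adjusted p under 0.05, alone or with a fold over 2, as in the study. Alternatives were RLE scaling, no filter, DESeq2 1.42.0 on 12 libraries or on 2 groups, a replicate block and each library left out. For pathway genes they were chosen after the data were seen, as was leaving out H − N replicate 3 for like patterns. The test was also run on simulated counts, drawn from a common mean per gene with changes planted in L + N. These held no library that stood apart, so they cannot show how the test behaves with such a library.

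Named genes were the 10 genes, every listed pathway gene past the adjusted p, 8 pathway genes whatever their values (OXT, PTGES3, SLCO2A1, PLA2G4A, GJA1, ESR1, PGR and PTGER3), and the 3 genes most like each of the 10. CXCL8, RIPK2 and the neutrophil and trophoblast markers were named after their values were seen. The 10 genes and the lists were chosen with earlier results of these data known. No replicates were duplicates (chi-square per gene 23.77 to 103.5). Promoters and proteins were not analysed here.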

Additional observations from a re-analysis of the deposited data

Results flagged for a closer look

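The difference between fiber levels in ITPR1, the calcium channel of the endoplasmic reticulum opened by inositol trisphosphate, was looked at again. Its direction was opposite without and with NCG, but neither difference passed the adjusted p of 0.05 by edgeR or under any of 17 alternatives. All 3 H − N libraries (76.5–103.8 CPM) lay below all 3 L − N libraries (106.5–134.0 CPM), whereas all 3 H + N libraries (89.5–106.1 CPM) lay above all 3 L + N libraries (81.2–89.1 CPM). Of all genes tested, 25.4% were without overlap in the first of these comparisons and 11% in the second. The interaction of fiber and NCG was 0.60 on the log2 scale (SE 0.19, adjusted p = 0.287, edgeR). It did not pass the threshold, and it passed under none of 16 alternatives, in which it ran from 0.47 to 0.69.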

How the results depend on the processing

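Of 1500 values of the 10 genes under the alternatives, 20 passed the adjusted p of 0.05 and 1480 were not called. The latter include the values of PTGS2 for which DESeq2 gave no adjusted p. In all, 35 of 90 values, none of them called, changed sign under at least 1 alternative. Scaling by RLE (median shift of all genes at most 0.0183) and no filter changed no count of called members. DESeq2 on the 12 libraries called 1 of 10 in place of 0 for each of the 3 groups against L − N, as well as for H − N against L + N, by either rule, and 1 by the adjusted p alone for high against low fiber and for NCG. DESeq2 on the 2 groups alone called 1 for L + N and for H − N against L − N by either rule, and for H − N against L + N 1 by both thresholds and 2 by the adjusted p. When single libraries were omitted, the count by the adjusted p ran from 0 to 2 for L + N against L − N and from 0 to 1 for NCG and for either high-fiber group against L − N. By both thresholds it ran from 0 to 1 for each of the 3 groups against L − N. The libraries behind these calls were L − N replicate 1, H − N replicate 3, and H + N replicates 1 and 3. Without L − N replicate 1, 5 values passed. Over the whole table, the genes past the adjusted p also moved with the library omitted. For L + N against L − N they ran from 207 to 1964 (1474 with all libraries). For H − N against L − N they ran from 0 to 2025 (809), and for H + N against L − N from 1 to 1823 (1223). Each was highest without L − N replicate 1. The cause was not tested.

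Most same-numbered libraries did not deviate together (2 of 18 pairs over a correlation of 0.1, range −0.32 to 0.33 over 2000 genes). Both of these pairs joined H − N with H + N, at 0.24 for replicate 2 and 0.33 for replicate 3. Replicate 1 of these groups had 0.08. The labels do not say what the numbers stand for. With the replicate block 0 of 10 genes passed in every comparison. With 3 libraries per group the intervals of the 10 genes were wide, up to 5.96 log2 units, and a difference that did not pass is not shown to be absent. HPGD (38–337 counts), PTGS1 (60–174 counts) and PTGS2 (65–1111 counts) also carry counting error.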
